A study of Mus musculus with 26 samples.

Results

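The 9 genes Pdgfra, Olig1, Olig2, Sox10, Cnp, Mag, Mog, Mobp and Mbp mark the oligodendrocyte lineage, the cells that wrap axons in myelin. They were followed as a measure of other nuclei in open-chromatin maps of sorted neurons, and their peaks were found by the gene name that the authors gave each peak. The gene table of the same build holds 21887 protein-coding genes, and 21540 genes of any kind were named for a peak. The maps were made by ATAC-seq, a method that tags accessible DNA with sequencing adapters by means of a transposase, in nuclei of medium spiny neurons (MSNs), the main projection neurons of the striatum. D1 MSNs carry the dopamine receptor Drd1 and D2 MSNs carry Drd2. The labels give mouse brain as the tissue, and the title names the nucleus accumbens. There are 4 states, and the labels define them only by treatment: relapse to cocaine (CC), chronic exposure followed by prolonged withdrawal (CS), an acute exposure (SC) and baseline (SS). The groups were D1 CC, D1 CS and D1 SC with 4 libraries each, D1 SS with 2, D2 CC with 1, D2 CS with 8, D2 SC with 1 and D2 SS with 2, or 26 libraries. Strain, age, sex, dose, the allele or label used to sort the nuclei and any pooling of animals are not given in the sources used here.

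Oligodendrocyte precursors carry the growth factor receptor encoded by Pdgfra. They differentiate under the basic helix-loop-helix factors Olig1 and Olig2 and the HMG-box factor Sox10, which acts on many myelin genes. Myelinating cells then make large amounts of Mbp, Mobp, Cnp, Mag and Mog, genes used as markers of these cells rather than of neurons, although the long transcription unit of Mbp also encodes golli proteins that neurons make. In bulk ATAC-seq, the share of such nuclei and the accessibility within each nucleus cannot be told apart.

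The promoters of Mog and Mag are shown because peaks overlap them, in part or in full, in the D1 CC and D1 CS lists and in none of the other 6 lists. Those of Mobp and Olig2 are shown beside them because no list has a peak there. Each is a window of 300 bases from RefSeq on GRCm38.p6 (mm10), from 250 bases before a transcription start to 50 after it, written 5′ to 3′ on the gene's strand. Capitals mark 3 motifs on either strand. The core letters of SOX factor sites, ACAAAG, read CTTTGT when the match is on the other strand. The variant core ACAATG then reads CATTGT. The GC box GGGCGG then reads CCGCCC. The E-box CAGCTG was searched too and had no match in these windows, and no matches overlapped each other. The Mog window is chr17:37023349-37023648 on the minus strand, the Mag window (1 of 3 in the table) chr7:30914814-30915113 on the minus strand, the Mobp window chr9:120149492-120149791 on the plus strand and the Olig2 window chr16:91225300-91225599 on the plus strand. Another of the 3 Mag windows, chr7:30914272-30914571, overlapped no peak in any list.
Mog: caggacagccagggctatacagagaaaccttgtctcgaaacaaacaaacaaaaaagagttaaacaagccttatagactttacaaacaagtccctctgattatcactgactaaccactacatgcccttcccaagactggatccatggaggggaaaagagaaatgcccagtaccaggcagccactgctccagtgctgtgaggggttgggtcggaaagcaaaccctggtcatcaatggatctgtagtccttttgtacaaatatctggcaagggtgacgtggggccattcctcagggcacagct
Mag: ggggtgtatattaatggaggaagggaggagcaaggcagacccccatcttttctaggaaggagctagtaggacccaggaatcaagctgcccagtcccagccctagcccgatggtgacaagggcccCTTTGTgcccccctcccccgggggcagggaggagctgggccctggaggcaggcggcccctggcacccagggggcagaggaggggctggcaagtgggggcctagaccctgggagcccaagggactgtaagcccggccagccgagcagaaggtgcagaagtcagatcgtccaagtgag
Mobp: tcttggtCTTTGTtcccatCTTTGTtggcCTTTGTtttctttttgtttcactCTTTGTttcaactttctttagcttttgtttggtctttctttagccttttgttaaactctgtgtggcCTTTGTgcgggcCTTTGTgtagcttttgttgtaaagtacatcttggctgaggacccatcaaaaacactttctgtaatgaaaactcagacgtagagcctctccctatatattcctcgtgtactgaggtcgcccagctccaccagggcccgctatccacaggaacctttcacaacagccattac
Olig2: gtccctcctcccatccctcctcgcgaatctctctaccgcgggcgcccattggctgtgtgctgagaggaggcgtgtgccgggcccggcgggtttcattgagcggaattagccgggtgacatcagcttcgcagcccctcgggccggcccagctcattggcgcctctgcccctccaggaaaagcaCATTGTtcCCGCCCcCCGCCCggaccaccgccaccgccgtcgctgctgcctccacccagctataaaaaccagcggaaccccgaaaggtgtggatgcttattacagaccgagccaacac

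The windows differ in base composition. Mog had a GC content of 48.3% and an observed-over-expected CpG ratio of 0.17, and Mag had 65.0% and 0.19, so CpG pairs were sparse in both. Mobp had 43.3% and 0.36. Olig2 had 65.0% and 0.82, and was the most CpG-dense of the 4. Over 27025 promoters the medians were 52.7% and 0.39, and promoters of genes with a peak there had a median ratio between 0.75 in D1 CC and 0.79 in D1 SS. Mog had none of the motifs, Mag had 1 ACAAAG match, Mobp had 6, and Olig2 had 1 ACAATG and 2 GGGCGG matches. ACAAAG occurs in 18.7% of all promoter windows, ACAATG in 12.8%, CAGCTG in 16.1% and GGGCGG in 35.9%. The Cnp window, chr11:100574689-100574988, had 59.7% GC and a ratio of 0.64, with 1 ACAAAG and 2 GGGCGG matches, and the peaks of Cnp lie after its end. The table gave windows outside chromosome 18 for 6 of the 9 genes.

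With 1 peak list to a group, there is no replicate error and no test between groups is possible, and every difference is one between these lists. The lists held 27917 (D2 CS) to 77103 peaks (D1 CC) over 13.7 to 42.3 Mb. The background pileup, a read depth inferred for each list from the steps between its fold values, was 1.15 in D1 SC, 2.22 in D2 CS, 3.5 in D1 CS and between 4.12 and 6.14 in the other 5. D1 CC, D1 CS, D1 SC and D2 CS had 144, 115, 74 and 71 peaks on patch scaffolds of the assembly, against 4 in D1 SS and 7 in each of D2 CC, D2 SC and D2 SS. These 2 technical sets are called patch-rich and patch-poor. Of 14 comparisons, 7 are within a set, and in the others the set and the group cannot be told apart. As to the neuron label, all 10 general neuron markers had a promoter peak, within 1 kb of a start site, in every list. Of 16 MSN markers 12 (D1 SS) to 16 (D1 CC and D2 CC) did. The MSN markers include Drd1 and Drd2, so these counts do not bear on the D1 or D2 label. Drd1 had a promoter peak in every list, and Drd2 had one in D1 CC, D1 CS and every D2 list.

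The 9 genes had peaks in every list but not the same ones. Only Mag and Mog had peaks in both D1 CC and D1 CS and in no other list. Olig1 and Mbp had a promoter peak in all 8 lists and Pdgfra in all but D1 SS. Cnp had one in D1 CC, D1 CS and D1 SC, and Mag and Mog in D1 CC and D1 CS. Olig2 had 1 peak in D2 SS outside the promoter limit, and Sox10 and Mobp were named for none. A promoter peak was thus held by 6 of the 9 genes in D1 CC, 6 in D1 CS, 4 in D1 SC, 2 in D1 SS and 3 in each D2 list. Of all protein-coding genes 53.7%, 51.3%, 45.0% and 39.0% had one in D1 CC, D1 CS, D1 SC and D1 SS, and 49.3%, 46.3%, 47.6% and 49.1% in D2 CC, D2 CS, D2 SC and D2 SS. The counts of the 9 genes stand for 66.7% in D1 CC and D1 CS and 44.4% in D1 SC. They stand for 22.2% in D1 SS and 33.3% in each D2 list. With 9 genes, few genes make up each distance from the background, so no difference from it is read. With all lists shortened to 27917 peaks, 2 of the 9 had a promoter peak in D1 CC and 4 in D1 CS and D1 SC.

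**Figure D1:**
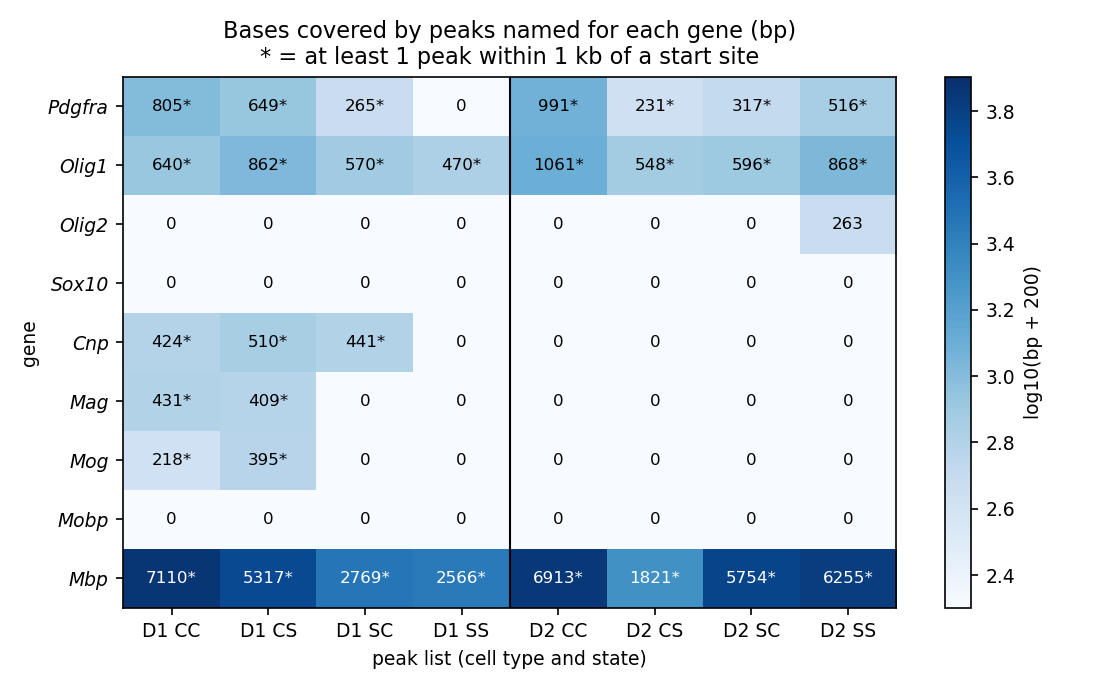
Bases covered by peaks named for each of the 9 genes (rows) in each of the 8 peak lists (columns); colour is log10 of bp plus 200, the number is bp, and an asterisk marks at least 1 peak within 1 kb of a start site. Mog and Mag are filled in D1 CC and D1 CS, Cnp also in D1 SC, and Olig1 and Mbp in all 8 lists.

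In all, 117 peaks were named for these genes over the 8 lists. They made up 0.0324% of the peaks in D1 CC (25 peaks, exact 95% Clopper-Pearson interval 0.021 to 0.0479%), 0.0413% in D1 CS (20 peaks, 0.0252 to 0.0637%), 0.0388% in D1 SC (11 peaks, 0.0194 to 0.0695%) and 0.0245% in D1 SS (7 peaks, 0.00985 to 0.0505%). In the D2 lists the shares were 0.0234% in CC (16 peaks, 0.0134 to 0.038%), 0.0287% in CS (8 peaks, 0.0124 to 0.0565%), 0.0238% in SC (14 peaks, 0.013 to 0.0399%) and 0.0259% in SS (16 peaks, 0.0148 to 0.042%). These intervals cover counting error only and take the peaks as independent, although 88 of the 117 belonged to Mbp. All 8 intervals overlap, but they are no test between lists, and no verdict is drawn from them. By the authors' classes 68 of the 117 peaks (58.1%) were in gene bodies, 28 (23.9%) in proximal promoters, 12 (10.3%) within 1 kb and 9 (7.69%) within 3 kb of a start. Of the 68 gene-body peaks, 67 belonged to Mbp.

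Pdgfra, the receptor of precursors (chr5:75151322-75198206, plus strand, ENSMUSG00000029231), had 805 bp covered in D1 CC, 649 in D1 CS, 265 in D1 SC and 0 in D1 SS. In D2 CC it had 991 bp, in D2 CS 231, in D2 SC 317 and in D2 SS 516. The covered length was largest in D2 CC and D1 CC and 0 in D1 SS, and the ranges of the D1 and D2 lists overlap. The same region, chr5:75156043-75156701, gave the promoter peak in all 7 lists that had one, between internal transcript starts at 75155899 and 75156833. It lies inside the gene, after the end of the RefSeq window of its first start (chr5:75152001-75152300), which no peak overlapped. The strongest peak had a higher fold than 24.7% of the peaks of its own list in D1 SC and than 55.9% in D2 SS, the lowest and highest of the 7 lists. Fold enrichment is not scaled between lists, so it is given here as this rank within a list.

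Olig1, a basic helix-loop-helix factor of the lineage (chr16:91269769-91271939, plus strand, ENSMUSG00000046160), had the peak of highest fold among the 9 genes in 6 of the 8 lists, all but D1 SC and D1 SS, where Mbp had it. It covered 640 bp in D1 CC, 862 in D1 CS, 570 in D1 SC and 470 in D1 SS, and 1061 bp in D2 CC, 548 in D2 CS, 596 in D2 SC and 868 in D2 SS. The ranges of the D1 and D2 lists overlap. Its main peak at the start site had folds of 7.58, 6.36, 6.33 and 3.91 in D1 CC, D1 CS, D1 SC and D1 SS, and of 7.35, 6.74, 9.08 and 7.3 in D2 CC, D2 CS, D2 SC and D2 SS. Within its list it stood above 88.1%, 78.0%, 56.8% and 26.1% of the peaks in D1 CC, D1 CS, D1 SC and D1 SS, and above 89.2%, 76.0%, 94.8% and 88.5% in D2 CC, D2 CS, D2 SC and D2 SS. D1 SS was the low one and D2 SC the high one. Since this promoter was open in every list, Olig1 does not separate lists by presence.

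Olig2, a paralogous factor that specifies the lineage, lies on the same chromosome (chr16:91225550-91228677, plus strand, ENSMUSG00000039830). Its 1 peak, in D2 SS, was 263 bp wide at chr16:91226918-91227180, 1499 bp from the start, with a fold of 3.09 that exceeded 11.7% of the peaks of that list. Its CpG-dense promoter window held no peak in any list. Sox10 (chr15:79154913-79164490) was not named for a peak. The closest peaks lay before the lower coordinate of the gene, in D1 CC and D1 CS. D1 CC had 387 bp named for Polr2f, 2657 bp from Sox10, and 322 bp named for no gene, 1799 bp away. D1 CS had 205 bp named for Polr2f, 2959 bp away. Their folds of 3.11, 2.31 and 2.9 exceeded 8.4%, 0.3% and 2.2% of the peaks of their list, and within 5 kb of Sox10 the other 6 lists had no peak.

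Among the myelin genes, Cnp, a cyclic nucleotide phosphodiesterase of non-compact myelin (chr11:100574909-100591875, plus strand, ENSMUSG00000006782), had 424 bp in D1 CC, 510 in D1 CS, 441 in D1 SC and 0 in D1 SS and in all 4 D2 lists. The D1 CC peaks were chr11:100575060-100575276 and chr11:100575407-100575613, the D1 CS peak chr11:100575108-100575617 and the D1 SC peak chr11:100575099-100575539. Their folds of 2.63, 2.7, 3.26 and 3.32 exceeded 1.5%, 2.1%, 7.5% and 0.7% of the peaks of their lists, so these were among the weakest peaks by fold. By q-value the D1 CC peaks (6.08e-06 and 3.11e-06) and the D1 CS peak (1.30e-08) remain at a q of at most 1e-05, and the D1 SC peak (7.55e-04) does not. Peaks in the neighbouring gene Ttc25, about 3 to 4 kb before Cnp, were in all 8 lists, with 1079 bp in D1 CC and 265 bp in D1 SS.

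Mag, an adhesion protein of the myelin membrane that faces the axon (chr7:30899175-30914922, minus strand, ENSMUSG00000036634), had 431 bp in D1 CC and 409 bp in D1 CS and 0 in the other 6 lists. The D1 CC peak, chr7:30914754-30915184, covered all 300 bases of the window shown above, and the D1 CS peaks, chr7:30914712-30914914 and chr7:30914979-30915184, covered 236 of them. Folds of 4.21 in D1 CC and of 4.14 and 3.92 in D1 CS exceeded 39.0%, 33.7% and 26.6% of the peaks of the same list. Mog, a protein of the outer myelin surface (chr17:37010740-37023398, minus strand, ENSMUSG00000076439), had 218 bp in D1 CC and 395 bp in D1 CS and 0 elsewhere. The D1 CS peak, chr17:37023272-37023666, covered the whole Mog window, and the D1 CC peak, chr17:37023158-37023375, covered 27 bases of it and reached into the gene. Folds of 3.44 in D1 CC and 3.56 in D1 CS exceeded 15.7% and 14.6% of the peaks. With q-values of 8.98e-05 in D1 CC and 2.47e-04 in D1 CS, neither Mog peak remains at a q of at most 1e-05, whereas the Mag peaks of both lists do. The 9 peaks of Mog, Mag and Cnp, all classed as proximal promoter by the authors, were 203 to 510 bp wide and exceeded 0.7 to 39.0% of the peaks of their own list by fold. In the same 3 lists the main peak of Olig1 exceeded 56.8 to 88.1%.

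Mobp, a small protein of compact myelin (chr9:120149742-120181488), was named for no peak. A peak named for the neighbouring gene AC110091.2 lay 2918 bp after it in D1 CC (698 bp, fold 5.34, above 64.2% of the list) and 2932 bp after it in D1 CS (246 bp, fold 4.03, above 31.5%). None of the other 6 lists had a peak within 5 kb of Mobp. Counted by position, a peak within 5 kb of the gene in D1 CC and D1 CS and in none of the other 6 lists was found for 4 of the 9 genes (Mag, Mog, Sox10 and Mobp). It was found for 272 of 21887 protein-coding genes, or 1.24%, a share computed after the values of Sox10 and Mobp were seen.

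**Figure D2:**
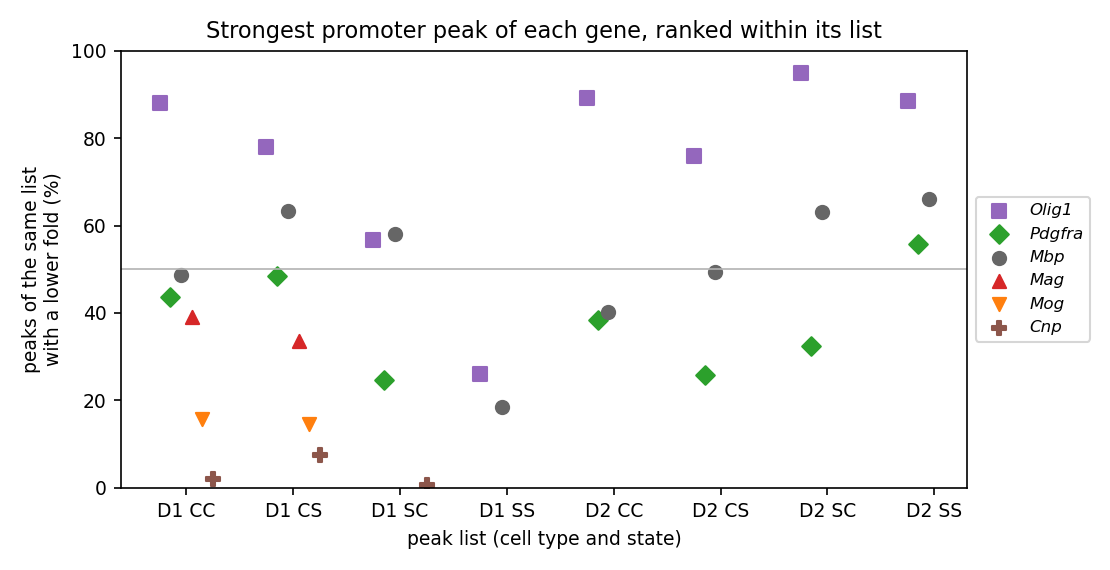
Share of peaks of the same list with a lower fold (y axis, %) for the strongest promoter peak of each gene in each list (x axis); a missing symbol means no promoter peak. Olig1 stands highest in 7 of the 8 lists, and Mag, Mog and Cnp lie at or below 39.0% wherever they have a peak.

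Mbp, the protein that compacts the myelin membrane, spans 110547 bp (chr18:82475091-82585637, plus strand, ENSMUSG00000041607) and had 88 of the 117 peaks. It covered 7110 bp in D1 CC, 5317 in D1 CS, 2769 in D1 SC and 2566 in D1 SS. In the D2 lists it covered 6913 bp in CC, 1821 in CS, 5754 in SC and 6255 in SS. This order follows the covered length of the lists except that D1 SC and D1 SS, close in both, change places. The gene has an upstream start at 82475146, used by golli transcripts, and a downstream start at 82554463, used by the classic myelin transcripts, 79317 bp apart. At the upstream start all 8 lists were covered, by 710, 650, 591 and 551 bp in D1 CC, D1 CS, D1 SC and D1 SS. In D2 CC, D2 CS, D2 SC and D2 SS they had 657, 572, 644 and 635 bp there. The value of D2 CS comes from separate peaks of 285 and 287 bp. These covered lengths lie close together, unlike the totals over the gene. At the downstream start D1 CC had a peak of 200 bp, the smallest width called, with a fold of 2.59, and no other list had one.

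Merging overlapping peaks of the 8 lists gave 26 regions for the 9 genes, 18 of them at Mbp. All 8 lists held 5 regions: the Olig1 promoter, the upstream Mbp start and the regions of Mbp centred 61.1, 76.4 and 102.66 kb after it. The region at 76.4 kb lies before the downstream start, at -2.91 kb from it. A single list held 8 regions, of which 5 were at Mbp, 2 at Pdgfra and 1 at Olig2. A region 38.73 kb after the upstream start was present in D2 CC (627 bp), D2 SC (499 bp) and D2 SS (640 bp) and in no D1 list, and also not in D2 CS. All 3 lists that hold it are patch-poor, and the fourth patch-poor list, D1 SS, is far shorter, so cell type cannot be told apart from set and length here. The regions at 52.71 and 92.64 kb were in every list except D2 CS, the shortest.

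**Figure D3:**
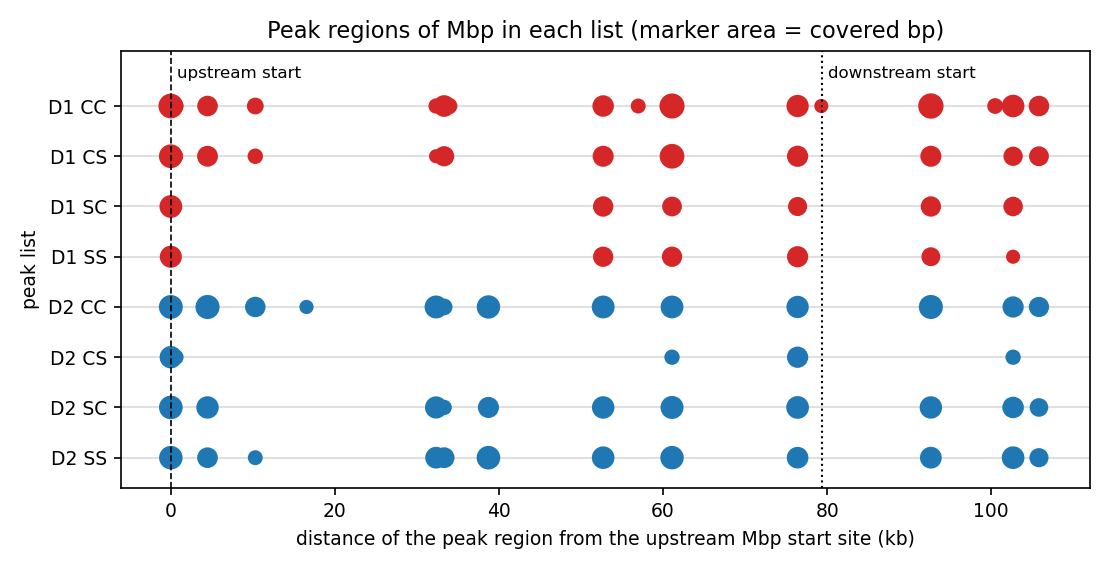
Peak regions of Mbp in each of the 8 lists (rows), by distance of the region's centre from the upstream start site (x axis, kb); marker area stands for covered bp, and the vertical lines mark the upstream start (dashed) and the downstream start (dotted). All 8 lists have a region at the upstream start, and D1 CC alone has one at the downstream start.

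Next, the lists were compared in pairs, as the cocaine design implies. A gene was called gained when it had a peak in the first list and none in the second, and lost in the reverse case. In D1 MSNs, CC over SS gained 4 of the 9 genes (Cnp, Mag, Mog, Pdgfra), and 33.9% of all 21540 named genes were gained, so gains were common in this comparison. CS over SS gained the same 4 genes against a background of 23.4%, and SC over SS gained 2 (Cnp, Pdgfra) against 11.3%. No gene was lost in these 3 comparisons, where 1.66%, 2.57% and 5.81% of all genes were lost. They share the D1 SS list and run between technical sets, so set and state cannot be told apart. Within the patch-rich set, D1 CC over D1 SC gained 2 genes (Mag, Mog) against 28.5% and D1 CC over D1 CS gained 0 against 14.6%, and neither lost any, against 1.79% and 3.29%.

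In D2 MSNs no gene of the 9 was gained in any of the 5 comparisons between states. The background was 6.41% in CC over SS, 4.14% in CS over SS, 4.05% in SC over SS, 7.91% in CC over SC and 22.2% in CC over CS. Olig2 was lost in the 3 comparisons with SS, through its 1 weak peak in D2 SS, where 4.08%, 19.9% and 6.54% of all genes were lost in CC, CS and SC. No gene of the 9 was lost in CC over SC or in CC over CS, against 3.09% and 4.09%. The D2 lists of CC and SC rest on 1 library each.

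Between cell types, D1 over D2 in CC gained 3 genes (Cnp, Mag, Mog), against 13.1% of all genes, and lost 0, against 5.03%. In CS, where both lists are patch-rich, D1 over D2 gained the same 3 genes against 17.6% and lost 0 against 2.8%. In SC it gained 1 gene (Cnp) against 4.03% and lost 0 against 17.9%. In SS, where both lists are patch-poor, D1 over D2 gained 0 against 1.56% and lost 2 (Olig2, Pdgfra) against 23.4%. The D1 CS list (48469 peaks) is longer than the D2 CS list (27917 peaks). The D2 CC, D2 SC and D2 SS lists (68444, 58810 and 61818 peaks) are longer than both and lack peaks of Mag, Mog and Cnp. They are also patch-poor and rest on 1, 1 and 2 libraries, so length cannot be told apart from set and libraries there. With all lists shortened to 27917 peaks, D1 over D2 gained 0 genes in CC and 1 in CS. The part of list length, technical set and number of libraries in these gains was not tested.

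The share of the list that a gene covered was compared on a log2 scale, as its covered bp plus 200 over the bp of the whole list plus 200, in the first list over the second. For a gene with 0 bp in 1 list, this pseudocount and the list lengths set the value: Mog, gained in D1 CC over D1 SS with 218 bp against 0, had -0.51. Signed values are therefore given for Mbp and Olig1, which had peaks in all 8 lists, beside the median of all genes with a peak in either list. In D1 CC over D1 SS, Mbp had -0.17 and Olig1 -1.25, and all genes had a median of -0.37. In D1 CS over D1 SS they had 0.19 and -0.15, against -0.08, and in D1 SC over D1 SS 0.14 and 0.24, against 0.15. In D1 CC over D1 SC they had -0.31 and -1.48, against -0.53, and in D1 CC over D1 CS -0.36 and -1.1, against -0.34. Mbp thus lay within 0.3 of the median of all genes in these comparisons, while Olig1 lay below it by over 0.7 in the 3 comparisons that share D1 CC as the first list. Without scaling to the list, all values of a comparison shift together, and the median of all genes was 1.21 in D1 CC over D1 SS, so only the distance from that median is independent of the scaling.

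In D2 MSNs, Mbp had -0.04, -0.34 and 0.0 in CC, CS and SC over SS, where all genes had medians of -0.09, 0.61 and 0.05, and Olig1 had 0.06, 0.82 and -0.31. In CC over SC, Mbp had -0.04 and Olig1 0.37, against -0.12. In CC over CS they had 0.3 and -0.76, against -0.63. For D1 over D2, Mbp had -0.07 in CC, 0.59 in CS, 0.2 in SC and 0.06 in SS, Olig1 had -0.7, -0.35, 1.16 and 0.61, and all genes had 0.04, -0.32, 0.6 and 0.33. The genes kept no common order: in CS, Mbp lay above the median of all genes and Olig1 close to it, and in SC Mbp lay below it and Olig1 above it.

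The medians over those of the 9 genes with a peak in either list, which rest on 3 to 6 genes and have no error, were -0.05 in D1 CC over D1 SS, 0.78 in D1 CS over D1 SS, 0.74 in D1 SC over D1 SS, -0.52 in D1 CC over D1 SC and -0.83 in D1 CC over D1 CS. For D2 they were 0.01 in CC over SS, 0.36 in CS over SS, -0.33 in SC over SS, 0.37 in CC over SC and -0.05 in CC over CS. For D1 over D2 they were 0.44 in CC, 0.65 in CS, 1.11 in SC and 0.07 in SS. Genes such as Mog, Mag and Cnp entered them through the 1 list that has their peak, and several medians change sign with the scaling or the pseudocount, so no direction is read from them.

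To see whether other genes of the lineage and of other brain cells did the same, further marker lists were read in the same way. Of 18 other markers of newly formed and myelinating oligodendrocytes, 13 had a promoter peak in D1 CC, 10 in D1 CS, 5 in D1 SC, 2 in D1 SS, 5 in D2 CC, 3 in D2 CS, 4 in D2 SC and 5 in D2 SS. Of 9 other precursor markers the counts were 8, 6, 4 and 4 in D1 CC, D1 CS, D1 SC and D1 SS, and 5, 4, 5 and 5 in D2 CC, D2 CS, D2 SC and D2 SS. Fa2h, a hydroxylase of myelin lipids, and Tspan2, a tetraspanin of the lineage, covered the most bp of the 18. Fa2h had 3931 bp in D1 CC, 2832 in D1 CS, 1468 in D1 SC and 1275 in D1 SS, and 2706, 1394, 2261 and 2584 in D2 CC, D2 CS, D2 SC and D2 SS. Tspan2 had between 570 bp in D1 SC and 3187 bp in D1 CC. Both thus had peaks in all 8 lists. Opalin, Aspa and Nkx6-2 had no peak in any list. Among precursor markers Lhfpl3 covered 10331 bp in D1 CC and 2017 bp in D1 SC, its extremes, and Ptprz1 4245 bp in D1 CC and 697 bp in D2 CS.

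The bp covered by the 9 genes were 0.0228% of the list in D1 CC, 0.0327% in D1 CS, 0.0292% in D1 SC and 0.0214% in D1 SS, and 0.0229%, 0.0189%, 0.0209% and 0.0228% in D2 CC, D2 CS, D2 SC and D2 SS. For the 18 other newly formed and myelinating markers the shares were 0.0425%, 0.0486%, 0.0296% and 0.0229% in D1 CC, D1 CS, D1 SC and D1 SS, and 0.029%, 0.0231%, 0.0289% and 0.0329% in the D2 lists in the same order. For the 9 other precursor markers they were 0.054%, 0.0367%, 0.0269% and 0.0411% in D1 CC, D1 CS, D1 SC and D1 SS, and 0.0463%, 0.0314%, 0.0474% and 0.0434% in the D2 lists in the same order. D1 CS had the highest share for the first pair of gene lists and a share below that of 5 other lists for the precursor markers. The shares of the 9 genes include Mbp regions that every list holds, so they count no nuclei.

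Markers of other cell types that a sort could carry over were read too. Of 10 astrocyte markers, 6, 4, 1 and 1 had a promoter peak in D1 CC, D1 CS, D1 SC and D1 SS, and 4, 3, 2 and 3 in D2 CC, D2 CS, D2 SC and D2 SS. Slc1a2, a glutamate transporter, had peaks in all 8 lists (4513 bp in D1 CC to 1274 bp in D2 CS), and so did Gja1, a gap junction gene (522 to 812 bp), whose peaks lay outside promoters. Of 10 microglia markers, 2 had a promoter peak in D1 CC, 0 in D1 SS and 1 in each other list. P2ry12, a purine receptor, had peaks in all lists but not at its promoter. Aif1, Tmem119 and Itgam, which define microglia, had no peak in any list. Of 10 vascular markers, 3, 2, 0 and 0 had a promoter peak in D1 CC, D1 CS, D1 SC and D1 SS and 0, 2, 0 and 1 in D2 CC, D2 CS, D2 SC and D2 SS. The receptor Flt1 and the adhesion protein Pecam1 covered the most, and Rgs5, Vtn and Tie1 had no peak. Summed over the 8 lists, Foxp1 and Pde10a covered the most bp of the MSN markers, with 18509 and 14593 bp in D1 CC and 19435 and 9183 bp in D2 CC, and Syt1 and Rbfox3 the most of the neuron markers, with 18883 and 14372 bp in D1 CC.

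**Figure D4:**
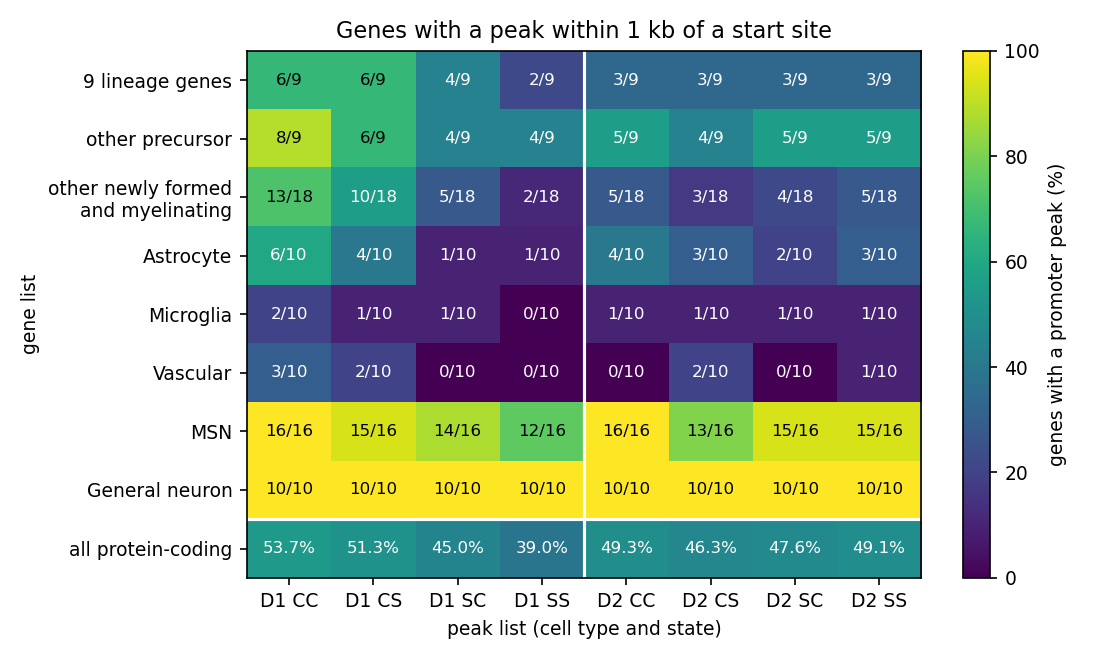
Number of genes with a peak within 1 kb of a start site in each marker list (rows) and peak list (columns), out of the genes in the list; colour is the share in percent, and the bottom row is the share of all protein-coding genes. The 9 lineage genes (6 and 6), the 18 other newly formed and myelinating markers (13 and 10), the 9 other precursor markers (8 and 6) and all coding genes (53.7% and 51.3%) are highest in D1 CC and D1 CS, and the general neuron markers are at 10 of 10 in every list. Astrocyte, microglia and vascular markers are also highest in D1 CC (6, 2 and 3). Their counts in D1 CS (4, 1 and 2) equal those of at least 1 D2 list.

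The pattern of Mag and Mog, a promoter peak in D1 CC and D1 CS and in none of the other 6 lists, was noticed after the values were seen and is given as a description with no test. It was shown by 234 of 21887 protein-coding genes, or 1.07%. Among the 9 genes 2 showed it. Among the 18 other newly formed and myelinating markers 5 did, among them Mal, a lipid raft protein, Ermn, a cytoskeletal protein of myelin, Bcas1, a marker of newly formed cells, and Tcf7l2, a Wnt pathway factor active in these cells. Among the 9 other precursor markers Nkx2-2, a homeobox factor of differentiation, did. None of the 56 markers of astrocytes, microglia, vascular cells, MSNs and neurons did. Of these, the 10 neuron markers had a promoter peak in every list. Each of the 16 MSN markers had one in at least 1 of the other 6 lists. Neither group could show the pattern, so the 56 as a whole are no contrast to the oligodendrocyte markers. The astrocyte, microglia and vascular markers, 10 of each, are few, and no difference from them is read. D1 CC and D1 CS are patch-rich lists of 4 libraries each. When the peak had to be absent only from the other patch-rich lists, D1 SC and D2 CS, the pattern held for 2 of the 9 genes, 8 of the 27 other oligodendrocyte markers, 1 of the 56 others and 3.56% of coding genes. When it had to be absent only from the 4 patch-poor lists, it held for 3 of the 9 (Cnp, Mag, Mog), 6 of the 27, 0 of the 56 and 2.02%. With all lists cut to the length of the shortest, 27917 peaks, none of the 9 genes and 1 of the 27 showed it (0.247% of coding genes). At a q of at most 1e-05, Cnp and Mag showed it, with 1 of the 27 (Bcas1), 1 of the 56 and 1.06% of coding genes. D1 SC, also of 4 libraries and patch-rich, has the lowest background pileup, and the part of depth in its missing peaks was not tested.

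The genes whose covered share over the 8 lists was most like the median of the 9 genes were Blm (Pearson r = 0.996), Ipo13 (0.974), Susd1 (0.972), Slc22a3 (0.97) and Ttll1 (0.97), among 16504 genes with a peak in at least 4 lists. The median covered bp of the 9 genes was 424 in D1 CC, 409 in D1 CS and 0 in the other 6 lists, and the 8 points share their list lengths. The likeness therefore describes list length and 2 lists with a peak more than it describes the 9 genes.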

How the data were processed

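The data are ATAC-seq peaks of MSN nuclei, in 8 lists that each stand for 1 group, from 26 libraries. Per the submitters' processing notes the build is mm10, and cutadapt, HISAT, SAMtools and MACS2 were involved, for which neither versions nor roles are given. Nor do the sources used here say whether peaks were called on pooled libraries. Each peak's fold enrichment, a ratio over the peak caller's background, is a deposited value of the authors that was left unscaled across lists. Its q-value was also deposited by the authors and reached 0.0453 at most. Distance to a start site, region class and gene name are the authors' own. The lists hold 0 columns per library, so there is no replicate error and no test between groups.

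Autosomal (1 to 19), X and Y peaks were kept, with 1-based coordinates. Peaks were assigned by the authors' gene name, and a promoter peak had an absolute distance of up to 1000 bp. Covered bp are summed peak widths. Read totals were not used here, and depth is given as the background pileup, derived from the steps between fold values. Gene positions and promoter sequences came from RefSeq tables of GRCm38.p6. The 9 genes, the marker lists and the comparisons were chosen with earlier results of these data known. All 9 genes were named, and from each other marker list the 2 with the most covered bp and up to 3 without a peak; a few of these are not reported here. The likeness list took the 5 highest Pearson r. Alternatives were a q of at most 1e-05, lists shortened to the strongest 27917 peaks, promoter limits of 250 and 3000 bp, assignment by position with 5 kb on each side, a pseudocount of 1000 bp, no scaling and a reciprocal overlap of 50%. The alternatives for the D1 CC and D1 CS pattern were chosen after seeing the data. Calls of gained and lost genes and the log2 ratio, without scaling or pseudocount, were tested on an altered D1 SS list. The merging of regions was run on identical lists of Mbp peaks. The other steps had no such test. The software was matplotlib 3.10.9, scipy 1.17.1, numpy 2.4.6 and pandas 2.3.3 under Python 3.11.15.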

Additional observations from a re-analysis of the deposited data

Results flagged for a closer look

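Sox10 and Mobp were named for no peak, but peaks that the authors named for other genes or for none lay within 5 kb of them in D1 CC and D1 CS, and in none of the other 6 lists, the D1 SS and D2 SS lists of the baseline state included. Near Sox10, D1 CC had 387 bp named for Polr2f and 322 bp named for no gene, and D1 CS had 205 bp named for Polr2f. Near Mobp, D1 CC had 698 bp and D1 CS had 246 bp, both named for AC110091.2. They are given because they lie outside the peaks named for the 9 genes and have no counterpart in the baseline lists. Of all 21887 protein-coding genes, 272 (1.24%) had a peak within 5 kb in D1 CC and D1 CS and in none of the other 6 lists. Both lists are patch-rich and have 4 libraries, and whether this bears on the peaks was not tested.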

How the results depend on the processing

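Each list stands for its group as a whole, and leaving out a library is not possible. No paired analysis was possible because the lists hold no value per library. The background pileup was lowest, 1.15, in D1 SC, and the part of depth in its missing peaks was not tested. No result had a test, so what follows are values that moved.

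With lists shortened to the strongest 27917 peaks, the bp covered by the 9 genes were 3747 in D1 CC, 5253 in D2 CC and 5235 in D2 SS. Of the 9 genes, 2 then had a peak in D1 CC and 2 in D2 SS, 2 had a promoter peak in D1 CC, and 0 showed the D1 CC and D1 CS pattern. The genes gained were 0 in D1 CC over D1 SC, D1 CC over D1 SS and D1 CC over D2 CC, 2 in D1 CS over D1 SS and D1 SC over D2 SC, and 1 in D1 CS over D2 CS and D2 CS over D2 SS. The genes lost were 2 in D1 CC over D1 CS and D1 CC over D1 SC, 1 in D2 CC over D2 CS, and 0 in D1 SS over D2 SS and in the 3 D2 comparisons with SS. The median log2 ratio was -1.28 in D1 CC over D1 SC and -0.57, with its sign changed, in D1 CC over D2 CC.

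At a q of at most 1e-05, D1 SS had 1975 bp, 1 gene with a peak and 1 with a promoter peak. D1 SC over D2 SC gained 0 genes, the 3 D2 comparisons with SS lost 0, D2 CC over D2 CS had a median of -0.78, and 3 regions were in every list. A reciprocal overlap of 50% left 2 regions in every list.

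Without scaling, the medians were -0.07 (D1 CC over D1 CS), 1.09 (D1 CC over D1 SC), 1.52 (D1 CC over D1 SS), 1.59 (D1 CS over D1 SS), 1.51 (D1 CS over D2 CS), -0.1 (D1 SC over D2 SC), -1.22 (D1 SS over D2 SS), 1.47 (D2 CC over D2 CS) and -0.97 (D2 CS over D2 SS). With a pseudocount of 1000 bp they were -1.21 (D1 CC over D1 SC), -1.06 (D1 CC over D1 SS), -0.27 (D1 CS over D1 SS), -0.37 (D1 CS over D2 CS), 0.81 (D1 SS over D2 SS), -0.82 (D2 CC over D2 CS) and 1.02 (D2 CS over D2 SS). Promoter limits of 250 and 3000 bp and assignment by position moved no count of the 9 genes by over 1.5 times. These counts are small, however. By position, 5 genes had a promoter peak in D1 CC and D1 CS, 3 in D1 SC, and 2 in D1 SS and in each D2 list. As reported, there were 6 in D1 CC and D1 CS, 4 in D1 SC, 2 in D1 SS and 3 in each D2 list. The cause of these shifts was not tested beyond the settings' own construction.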
